A study of Mus musculus with 15 samples.

Results

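Cadherins are membrane proteins that hold neighbouring cells together through calcium-dependent contacts. The cytoplasmic tail of a classical cadherin binds beta-catenin (the product of Ctnnb1) or its relative plakoglobin (Jup), which recruit alpha-catenin and the actin cytoskeleton, while p120-catenin (Ctnnd1) binds nearer the membrane and keeps the cadherin at the cell surface. In the mammary gland E-cadherin joins luminal epithelial cells, P-cadherin is typical of basal and myoepithelial cells, and other cadherins mark the vessels and the stroma.

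The 8 genes described here are Cdh1, Cdh2, Cdh3, Cdh5, Cdh6, Cdh11, Cdh13 and Cdh19. They were listed by name from the cadherin family, each measured by the brightest transcript cluster that the array annotation gives to that gene alone, and they are 8 of the 22180 genes so named. Cdh19 was selected on its measured values, since limma called it between heterozygous and wild-type tumors in an earlier look at these data. That difference is therefore given below as values. Where counts or alternatives mention its call, nothing is read from it. The other 7 were chosen by family. Cdh13 encodes T-cadherin, which is held in the membrane by a lipid anchor and has no tail for beta-catenin. The other 7 encode cadherins with a cytoplasmic tail.

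RNA came from mammary tumors, flash frozen at end burden, of mice with the ErbB2KI allele, and was hybridised to Affymetrix whole-transcript arrays with 1 array per tumor. Tumors were homozygous floxed (HOM, Ctnnb1 fl/fl), heterozygous floxed (HET, Ctnnb1 fl/wt) or wild type (WT, Ctnnb1 wt/wt) at Ctnnb1, 5 of each, and all carried ErbB2KI. Deletion was aimed at the mammary epithelium. The sources used here do not name the Cre driver or the age of the mice, nor do they say whether each tumor came from its own mouse, and the p-values therefore reflect variation among these 15 tumors. Values are deposited log2 array values, so a difference of 1 is a doubling, and means are given ± SD with n = 5 tumors per genotype. Whole tumors hold many cell types, and fewer cells of a type cannot be told apart from less RNA per cell.

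The labels were first set against Ctnnb1 itself, which was 11.48 ± 0.33 in HOM tumors, 11.50 ± 0.19 in HET tumors and 11.84 ± 0.39 in WT tumors. No difference passed the limma test across 14243 genes (adjusted p rounding to 1 for HOM against WT, 0.448 for HET against WT and 0.983 for HOM against HET). The tumor labelled HOM 5 had a Ctnnb1 level of 12.01, above every other HOM tumor, and the tumor labelled WT 5 had 11.22, below every other WT tumor. HOM 5 also had the lowest luminal marker mean of the HOM tumors (9.76) and their highest endothelial (9.21) and fibroblast (10.15) means. WT 5 lay within the range of the other WT tumors for these lists. Whether the labels of these 2 tumors were exchanged, or their cell content differed, was not tested. Results that could rest on these 2 tumors are given with and without them. Array medians lay between 5.54 and 5.73, the highest in HOM 5. HET 3 had the highest skeletal muscle marker mean, 11.77 against 5.85 to 7.14 in the other 14 tumors, and HET 1 the highest leukocyte marker mean, 10.32.

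All 8 cadherin genes passed the filter on low values, which asked for a level above the array median on at least 5 arrays. Cdh1, Cdh3, Cdh5, Cdh11 and Cdh13 did so on all 15 arrays, Cdh2 on 13 and Cdh6 on 12. Cdh19 did so on 8, which were 3 HOM, 0 HET and 5 WT arrays, so it was tested through the genotypes in which it was high. The other listed cadherins of the type I and type II families (Cdh4, Cdh7, Cdh8, Cdh9, Cdh10, Cdh12, Cdh15, Cdh18, Cdh20, Cdh22, Cdh24 and Cdh26) were measured too, and 3 of the 12, Cdh15, Cdh22 and Cdh24, passed the same filter.

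**Figure D1:**
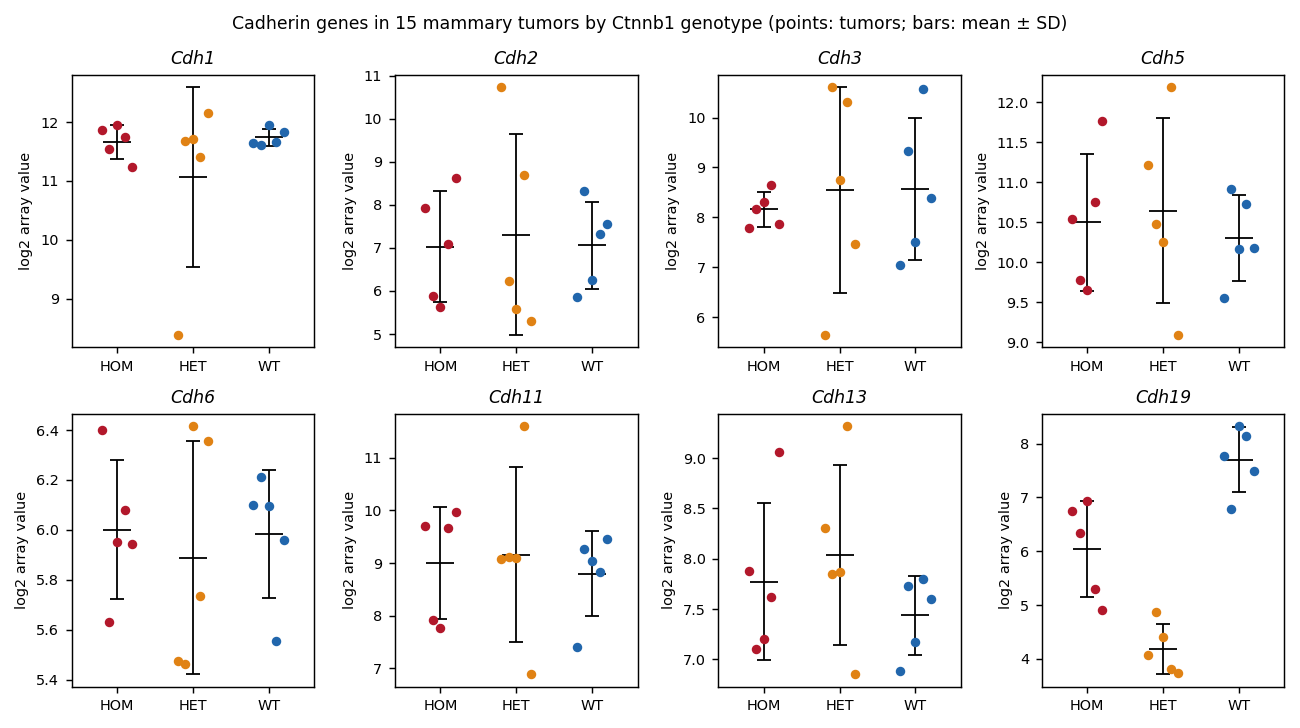
Log2 array values of the 8 cadherin genes in 15 tumors, by Ctnnb1 genotype (HOM, HET, WT). Points are tumors, and black bars show the mean ± SD of 5 tumors. Each panel has its own vertical axis. The HET and WT points of Cdh19 do not overlap (3.74 to 4.87 against 6.78 to 8.32), and 1 HET point of Cdh1 lies at 8.38, far below the other 14.

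Cdh1 encodes E-cadherin, the junctional cadherin of epithelial cells. In HOM tumors 1 to 5 it was 11.86, 11.54, 11.95, 11.75 and 11.23. In HET tumors 1 to 5 it was 8.38, 11.67, 11.72, 11.41 and 12.16, and in WT tumors 1 to 5 it was 11.64, 11.61, 11.94, 11.66 and 11.84. In 14 of the 15 tumors it thus stayed within 11.23 to 12.16 whatever the genotype, and HET 1 alone was low. Its differences were -0.07 for HOM against WT (95% interval -1.21 to 1.06), -0.67 for HET against WT (-1.80 to 0.46) and 0.60 for HOM against HET (-0.54 to 1.73), and none passed the test (limma, adjusted p rounding to 1, 0.586 and 0.776). Without HET 1 the HET against WT difference was 0.0019. A second, dimmer transcript cluster annotated to Cdh1 followed the first over the 15 tumors (r = 0.89) and was likewise lowest in HET 1, at 5.11 against 6.09 to 7.69 in the others.

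Cdh3 encodes P-cadherin, the cadherin of basal and myoepithelial mammary cells, and lies beside Cdh1 with 0 protein-coding genes between them in the RefSeq table. It was 7.80, 8.17, 8.32, 8.65 and 7.86 in HOM tumors 1 to 5. It was 5.64, 10.60, 8.75, 10.31 and 7.46 in HET tumors 1 to 5, and 7.04, 9.34, 7.51, 10.58 and 8.39 in WT tumors 1 to 5. HOM tumors were the most alike, with an SD of 0.35 against 2.06 in HET and 1.42 in WT tumors, and the spread was not tested. The highest values, in HET 2, HET 4 and WT 4, crossed genotypes, and HET 1 was again the lowest. The difference was -0.41 for HOM against WT (95% interval -2.24 to 1.41), -0.02 for HET against WT (-1.84 to 1.81) and -0.39 for HOM against HET (-2.22 to 1.43), and none passed the test (limma, adjusted p rounding to 1, 0.996 and 0.921). The first was -0.79 without WT 1 and 0.0903 without WT 4. The second ranged from -0.53 without HET 2 to 0.71 without HET 1.

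Cdh2 encodes N-cadherin, which joins neural, muscle and many mesenchymal cells and is often gained by carcinoma cells that lose E-cadherin. In HOM tumors 1 to 5 it was 7.93, 5.87, 5.62, 7.08 and 8.62. In HET tumors 1 to 5 it was 10.74, 6.22, 5.59, 8.69 and 5.31, and in WT tumors 1 to 5 it was 5.85, 8.32, 6.25, 7.31 and 7.56. The highest and the lowest tumor, HET 1 and HET 5, had the same genotype, and HET 5 lay below its own array's median of 5.57, so no fold is given between them. Genotype accounted for 0.746% of the variance of Cdh2 over the 15 tumors, where the median over the 14243 tested genes was 13.3%. Differences between genotypes were -0.03 for HOM against WT (95% interval -2.09 to 2.02), 0.25 for HET against WT (-1.80 to 2.31) and -0.29 for HOM against HET (-2.34 to 1.77), with adjusted p (limma) rounding to 1, 0.930 and 0.949. A dimmer second cluster annotated to Cdh2 followed the first (r = 0.93) and was also highest in HET 1, at 6.0 against 3.12 to 4.24 in the others.

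HET 1 therefore combined the lowest Cdh1 and Cdh3 with the highest Cdh2 of the 15 tumors. Of the 12 luminal epithelial markers, 10 were lowest in HET 1, among them Epcam (9.31 against 11.38 to 12.31 in the other tumors). Keratin 8, a luminal intermediate filament gene, was 12.04 there, within its range of 11.64 to 12.60 elsewhere. Of the genes listed as repressors of Cdh1 transcription, those named next were chosen after their values were seen. In HET 1 Twist2 was 8.89, its highest value, against 5.03 to 7.61 in the others. Tcf3 was also highest there, at 9.37 against 8.32 to 9.26. Zeb1 was 7.80 in HET 1, below HET 4 at 8.17, and Snai1 was 8.42, below HOM 5 at 9.02 and HET 4 at 8.55. Twist1 was 9.27 in HET 1, while HOM 5 at 9.56 and WT 2 at 9.45 were higher and had Cdh1 levels of 11.23 and 11.61. Snai2 was 8.33 in HET 1, below its median of 9.52. Snai3 at 6.19 and Tbx2 at 6.15 were also below their medians there, 7.26 and 6.21.

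**Figure D2:**
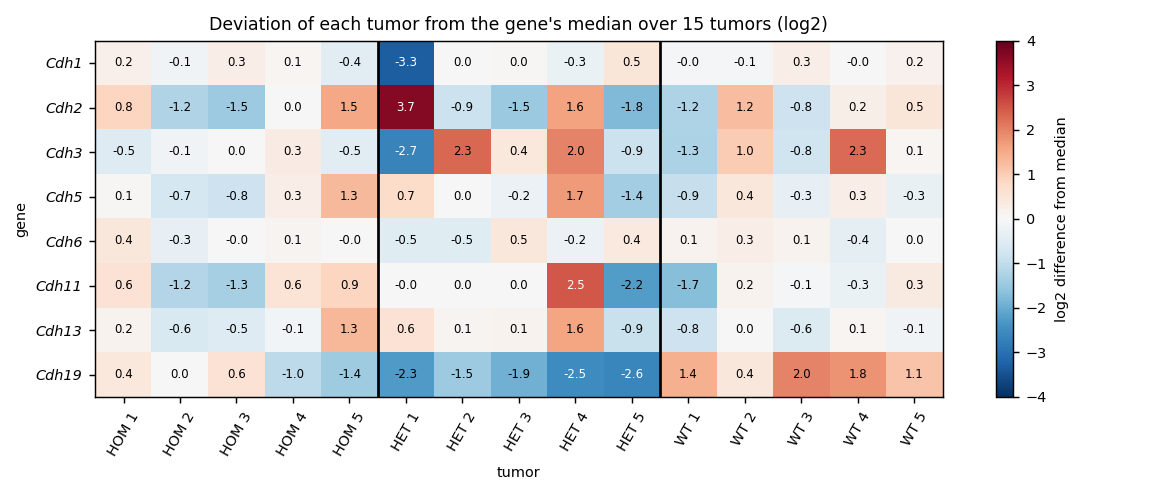
Deviation of each tumor from the gene's median over 15 tumors, on the log2 scale, for the 8 cadherin genes (rows) in HOM, HET and WT tumors (columns, separated by black lines). Red is above and blue below the median. HET 1 is low for Cdh1 and Cdh3 and high for Cdh2, HET 4 is high for Cdh5, Cdh11 and Cdh13 and HET 5 is low for them, and the Cdh19 row is blue across HET and red across WT.

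Cdh5 encodes VE-cadherin, the adherens junction cadherin of endothelial cells. It was 10.54, 9.78, 9.66, 10.76 and 11.77 in HOM tumors 1 to 5. It was 11.22, 10.48, 10.25, 12.19 and 9.09 in HET tumors 1 to 5, and 9.55, 10.92, 10.16, 10.73 and 10.18 in WT tumors 1 to 5. The 3 genotypes overlapped, with the extremes, HET 4 and HET 5, both in HET. Differences were 0.19 for HOM against WT (95% interval -0.92 to 1.30), 0.34 for HET against WT (-0.77 to 1.45) and -0.15 for HOM against HET (-1.26 to 0.96), with adjusted p (limma) rounding to 1, 0.797 and 0.953. The HOM against WT difference was -0.16 without the tumors labelled HOM 5 and WT 5.

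Cdh11 encodes a type II cadherin of fibroblasts and osteoblasts, and lies next to Cdh5 with 0 protein-coding genes between them in the RefSeq table. In HOM tumors 1 to 5 it was 9.70, 7.92, 7.77, 9.66 and 9.97. In HET tumors 1 to 5 it was 9.08, 9.12, 9.10, 11.60 and 6.88, and in WT tumors 1 to 5 it was 7.41, 9.26, 9.04, 8.84 and 9.45. As for Cdh5, HET 4 was the highest and HET 5 the lowest tumor, a 26.3-fold range. The differences, 0.21 for HOM against WT (95% interval -1.34 to 1.75), 0.36 for HET against WT (-1.18 to 1.91) and -0.16 for HOM against HET (-1.70 to 1.39), did not pass the test (limma, adjusted p rounding to 1, 0.849 and 0.966). Without HET 4 the HET against WT difference was -0.25 and without HET 5 it was 0.93.

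Cdh13, whose T-cadherin binds adiponectin and low-density lipoprotein on endothelial and muscle cells, ranged from 7.11 to 9.06 in HOM tumors, 6.85 to 9.32 in HET tumors and 6.89 to 7.80 in WT tumors. The highest values were those of HET 4 and of the tumor labelled HOM 5. Differences were 0.34 for HOM against WT (95% interval -0.57 to 1.25), 0.60 for HET against WT (-0.31 to 1.51) and -0.26 for HOM against HET (-1.17 to 0.65), with adjusted p (limma) rounding to 1, 0.544 and 0.889. Without HOM 5 the HOM against WT difference was 0.0151, and without HET 4 the HET against WT difference was 0.28.

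Cdh6, a type II cadherin of kidney and neural crest known as K-cadherin, ranged from 5.63 to 6.40 in HOM tumors, 5.46 to 6.42 in HET tumors and 5.56 to 6.21 in WT tumors. It was the least variable of the 8 genes, with an SD over 15 tumors of 0.32 that exceeded 52.2% of tested genes, and its values lay near the array medians. Its differences were 0.02 for HOM against WT (95% interval -0.44 to 0.47), -0.10 for HET against WT (-0.55 to 0.36) and 0.11 for HOM against HET (-0.34 to 0.57), with adjusted p (limma) rounding to 1, 0.867 and 0.908. The sign of the first turned under renewed quantile normalization (-0.0353) and median centring (-0.0272).

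Cdh19 encodes a type II cadherin known from Schwann cells and their neural crest precursors. In HOM tumors 1 to 5 it was 6.75, 6.34, 6.93, 5.30 and 4.91. In HET tumors 1 to 5 it was 4.07, 4.87, 4.41, 3.81 and 3.74, and in WT tumors 1 to 5 it was 7.77, 6.78, 8.32, 8.15 and 7.48. All HET tumors lay below all WT tumors. All HOM tumors lay between 4.91 and 6.93, with HOM 3 alone above the WT minimum of 6.78. HOM tumors lay above every HET tumor only narrowly, HOM 5 at 4.91 against HET 2 at 4.87. Both of these values were below their array medians of 5.73 and 5.62. HET tumors averaged 4.18 ± 0.47 against 7.70 ± 0.61 in WT, a difference of -3.52 that is the reason the gene is described. Since HET values fell below the array medians and no detection call was used, the size of that difference on the low side is uncertain.

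Genotypes were compared for Cdh19 in the 2 contrasts with HOM. These share their WT or HET tumors with HET against WT and are no independent check of it. The gene was selected on those WT and HET values, so nothing is read from the intervals. All HET values lay below their array medians, so the size of HOM against HET is uncertain too. HOM tumors averaged 6.04 ± 0.90, 1.66 lower than WT tumors on the log2 scale (difference -1.66, 95% interval -2.52 to -0.80, unadjusted for the number of genes), and the difference did not pass across all genes (limma, adjusted p rounding to 1). HOM against HET was 1.86 (1.0 to 2.72), with an adjusted p of 0.587 (limma) that ranged from 0.138 to 0.893 over the alternatives. Without the tumors labelled HOM 5 and WT 5 these differences were -1.43 and 2.15 (adjusted p = 0.943 and 0.160 by limma). HOM 4 and HOM 5 were the lowest HOM tumors for Cdh19, and their Ctnnb1 levels, 11.15 and 12.01, were the lowest and the highest of the HOM group.

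Schwann cell and nerve markers were set beside Cdh19, and the single markers named here were chosen after their values were seen. The mean of the 9 tested markers ranged from 7.15 to 7.81 in HOM tumors, 6.75 to 7.54 in HET tumors and 7.04 to 7.83 in WT tumors. Sox10, a transcription factor of neural crest that mammary epithelium also uses, was 6.92 to 8.14 in HET 1, HET 2 and HET 4 but 10.66 and 10.61 in HET 3 and HET 5, where Cdh19 was 4.41 and 3.74. S100b, which encodes a calcium-binding protein of glial and other cells, was 4.96 to 8.35 in HOM tumors, 4.15 to 6.12 in HET tumors and 5.73 to 8.59 in WT tumors. Like Cdh19 it had its lowest mean in HET and its highest in WT tumors, but HET and WT overlapped through HET 3 and WT 1. Its HET minus WT difference was -2.74 and that of Sox10 was -2.17, and neither passed (limma, adjusted p = 0.207 and 0.224). Of the 9 markers in the list, the HET mean was above the WT mean for 4 and below it for 5. Mbp, a myelin gene, was 6.16 to 7.11 in HOM tumors, 6.38 to 7.35 in HET tumors and 5.85 to 7.08 in WT tumors, with overlapping groups. With genotype means removed, the correlation of Cdh19 with the Schwann list was -0.19 (permutation within genotypes, p = 0.515, adjusted p = 0.694), and the part of nerve or glial cells in the Cdh19 differences was not tested further. Luminal markers had lower means in HET than in WT tumors for 11 of 12 genes (median difference -0.59), beside 7762 of all 14243 tested genes. List means were 7.52 to 10.76 in HET and 9.55 to 10.54 in WT tumors. HET 1 was lowest for 10 of the 12 genes, with a list mean of 7.52 against 9.30 to 10.76 in the other HET tumors. Leukocyte markers had higher means in HET tumors for 8 of 8 genes (median difference 0.71), beside 6481 of all 14243 tested genes. Their list means were 8.77 to 10.32 in HET and 7.94 to 9.55 in WT tumors. No gene of either list passed the test. With endothelial and leukocyte marker means as covariates the HET minus WT difference of Cdh19 was -3.37, beside -3.52 without them, and it was no longer called. Over all alternatives, luminal and fibroblast covariates among them, it lay between -3.75 and -3.34. Because the gene was listed for that difference, nothing is read from these values. The part of these cell types in the Cdh19 difference was not tested further.

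**Figure D3:**
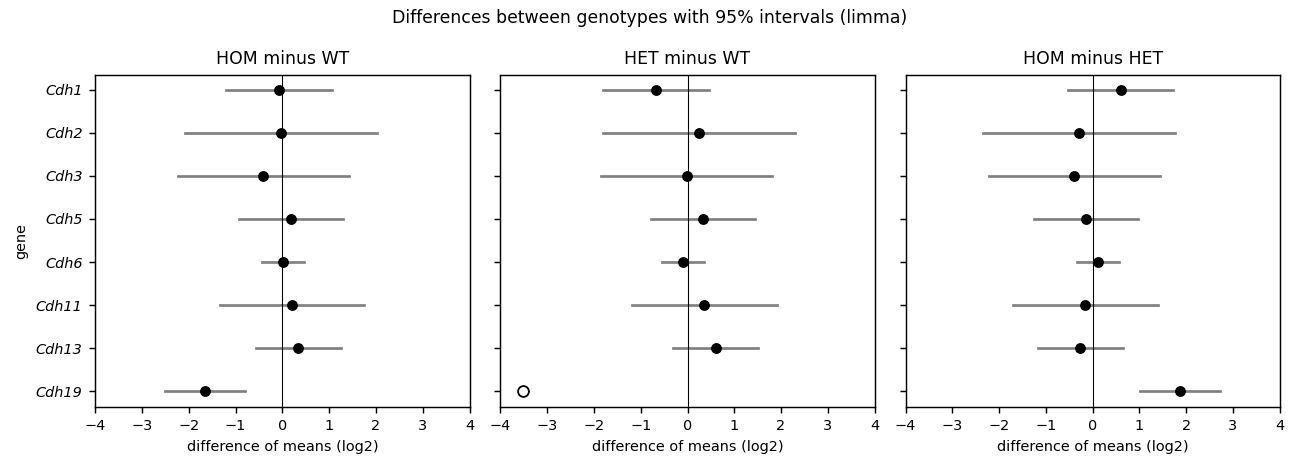
Differences of means between genotypes on the log2 scale for the 8 cadherin genes, with 95% intervals from limma (grey lines, not adjusted for the number of genes). The open circle is the HET minus WT difference of Cdh19, -3.52, drawn without an interval because the gene was listed for it. The intervals of Cdh19 in the comparisons with HOM share the WT or HET values it was listed for. The intervals of the other 7 genes include 0 in every comparison.

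Across the 3 comparisons, 0 of the 8 genes passed the limma threshold for HOM against WT, where 0% of the 14243 tested genes did. For HET against WT 1 of 8 passed, where 0.0140% of tested genes did, the called genes being Cdh19 and A530020G20Rik, both lower, so nothing is read from the count. For HOM against HET 0 of 8 passed, against 0% of tested genes. The HET against WT counts that follow include Cdh19 by its selection, and those with HOM share its WT or HET values. Nothing is read from these counts either. At an unadjusted p under 0.05 there was 1 of 8 in each comparison, always Cdh19, among 242 genes for HOM against WT, 1905 for HET against WT and 1129 for HOM against HET. Groups did not overlap for 0 of 8 genes in HOM against WT, 1 in HET against WT and 1 in HOM against HET. The shares over all tested genes were 0.281%, 1.58% and 1.03%, and the 1 gene was Cdh19 in both of the last comparisons. In HOM against HET it was apart only by HOM 5 at 4.91 against HET 2 at 4.87, both below their array medians. Without Cdh19, the median difference of the other 7 was 0.0163 for HOM against WT, 0.25 for HET against WT and -0.16 for HOM against HET, beside -0.0117, -0.0299 and 0.0139 over all tested genes.

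Variation between tumors was large for most of these genes even where genotype accounted for little of it. The SD over 15 tumors was 1.62 for Cdh19, 1.53 for Cdh2, 1.37 for Cdh3 and 1.15 for Cdh11, where the median tested gene had 0.31. Genotype accounted for between 0.746% and 12.6% of the variance of the 7 genes other than Cdh19, below the median of 13.3% over all tested genes.

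Levels across tumors were next set beside the mean level of cell type markers, since cadherins are often used to tell cell types apart. In all, 132 relations were computed over the 15 tumors, those of the 8 genes with 9 marker lists and 4 catenin genes and those among the 8 genes, and 21 had an adjusted permutation p under 0.05 for Pearson's r. The smallest p that the permutations can give was 1e-05. Cdh5 and the 13 endothelial markers rose and fell together (r = 0.986, rho = 0.979, both permutation p = 1e-05, adjusted p of r = 0.000189), with r = 0.978 without HET 4 and HET 5 and 0.987 with genotype means removed. Cdh13 followed the same markers (r = 0.956, rho = 0.854, permutation p = 1e-05 and 0.00018, adjusted p of r = 0.000189), with r = 0.918 without HET 4 and HET 5. Cdh11 followed the 11 fibroblast markers (r = 0.969, rho = 0.857, permutation p = 1e-05 and 0.00011, adjusted p of r = 0.000189), with r = 0.929 without the same 2 tumors. These stromal lists also moved together across tumors. Cdh5 was thus close to the fibroblast list too (r = 0.917), and Cdh11 to the endothelial list (r = 0.897). The difference between such correlations was not tested.

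Among the epithelial cadherins, Cdh1 followed the 12 luminal markers (r = 0.929, rho = 0.714, permutation p = 0.00019 and 0.00398, adjusted p of r = 0.00209), a relation that was 0.709 without HET 1 and 0.662 without HET 1 and HET 4. Cdh3 followed the 10 basal and myoepithelial markers (r = 0.797, rho = 0.679, permutation p = 0.00036 and 0.00693, adjusted p of r = 0.00339), with r = 0.621 without HET 1 and WT 1 and 0.895 with genotype means removed. Although they are neighbours, Cdh1 and Cdh3 had r = 0.475 and rho = -0.0821 (permutation p = 0.0927 and 0.775, adjusted p = 0.272 and 0.879), and r fell to -0.22 without HET 1 and HET 5. Cdh5 and Cdh11, the other neighbours, had r = 0.899 and rho = 0.804 (permutation p = 1e-05 and 0.00042, adjusted p of r = 0.000189), with r = 0.783 without HET 4 and HET 5.

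Cdh2 ran against the luminal markers (r = -0.814, rho = -0.575, permutation p = 0.00049 and 0.0271, adjusted p = 0.00404 and 0.110) and with the endothelial markers (r = 0.789, rho = 0.875, permutation p = 0.00052 and 7e-05, adjusted p = 0.00404 and 0.0029). The first was -0.548 and the second 0.799 without the 2 tumors farthest from the median of the marker mean (HET 1 and HET 4 for the luminal list, HET 4 and HET 5 for the endothelial list). Cdh1 and Cdh2 had r = -0.746 and rho = -0.621 (permutation p = 0.00102 and 0.0159, adjusted p = 0.00748 and 0.0777), and r was -0.593 without HET 1, with an adjusted permutation p of 0.0894. The opposed levels of E-cadherin and N-cadherin thus rested in part on 1 tumor, while the shared course of Cdh2 and Cdh5 (r = 0.798, rho = 0.868, permutation p = 0.00041 and 9e-05, adjusted p of r = 0.00361) was 0.869 without HET 1.

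**Figure D4:**
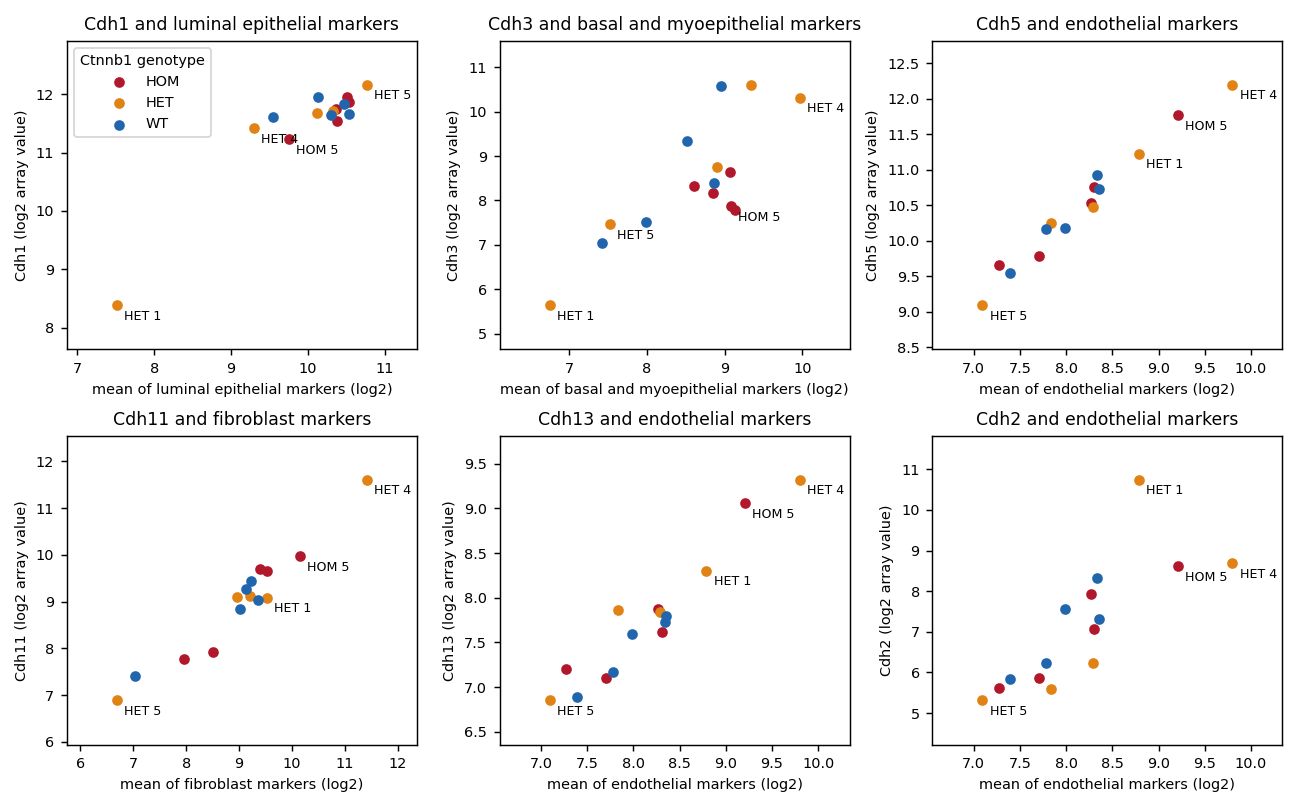
Level of a cadherin gene (vertical, log2 array value) against the mean of a marker list (horizontal, log2) in 15 tumors, coloured by Ctnnb1 genotype, with HET 1, HET 4, HET 5 and HOM 5 named. Cdh5 against endothelial markers (r = 0.986) and Cdh11 against fibroblast markers (r = 0.969) form lines on which the genotypes mix, and the Cdh1 panel is stretched by HET 1.

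Catenin genes showed less. None of the 8 cadherin genes had a correlation with Ctnnb1 past the threshold, and for the 7 with pooled values r lay between -0.10 (Cdh1) and 0.32 (Cdh2), with adjusted permutation p from 0.454 to 0.997. Cdh1 followed Jup, which encodes plakoglobin (r = 0.692, rho = 0.643, permutation p = 0.00505 and 0.0118, adjusted p = 0.0333 and 0.0651). That relation was 0.412 without HET 1, where Jup was also lowest at 9.94, with an adjusted permutation p of 0.318. Neither Ctnna1 (alpha-catenin) nor Ctnnd1 (p120-catenin) passed with any of the 8 genes. Between genotypes Jup averaged 12.56 ± 0.78 in HOM, 11.70 ± 1.14 in HET and 11.81 ± 0.69 in WT tumors, and 0 of the 10 tested catenin and tail partner genes passed in any comparison. The tumor labelled WT 5 had the highest Jup of all 15 at 12.98, and the tumor labelled HOM 5 had 11.17. Without both, Jup was 12.79 to 12.98 in 4 HOM tumors and 11.31 to 11.82 in 4 WT tumors, which did not overlap. The HOM minus WT difference was then 1.39 (95% interval 0.35 to 2.43), against 0.75 (-0.37 to 1.87) with them. These intervals are unadjusted for the number of genes, and the adjusted p (limma) rounded to 1 either way. The setting without both was applied to Jup after seeing the data. The 2 tumors left out had the Jup values farthest from their own groups, so leaving them out widens the gap by itself and nothing is read from it.

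HET tumors lay below the others for Cdh19, so its relations with lists, catenins and other cadherins were taken with genotype means removed. No relation of Cdh19 passed on that scale, the largest r being those of Cdh5 (r = -0.44, permutation within genotypes, p = 0.108, adjusted p = 0.384), Cdh2 (r = -0.42, permutation within genotypes, p = 0.0967, adjusted p = 0.370), endothelial markers (r = -0.43, p = 0.120, adjusted p = 0.384) and Jup (r = 0.43, p = 0.118, adjusted p = 0.384). Cdh6 had no relation past the threshold with any list, catenin or other cadherin of the set (smallest adjusted permutation p = 0.0633, with Cdh1 at r = 0.499).

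**Figure D5:**
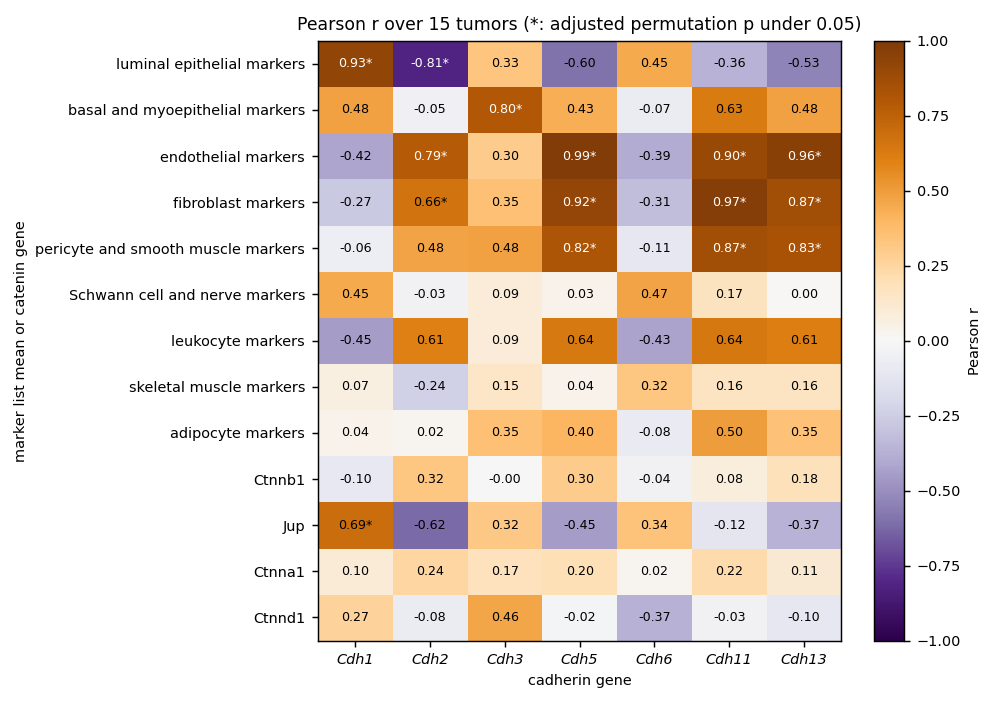
Pearson r over 15 tumors between 7 cadherin genes (columns) and the means of 9 marker lists or 4 catenin genes (rows). A star marks an adjusted permutation p under 0.05 over all 132 relations. Stars gather in the endothelial, fibroblast and pericyte rows for Cdh5, Cdh11 and Cdh13, and the Ctnnb1 row has none. Cdh19 is left out because its HET values lie below those of the other tumors.

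The genes with the most similar course over the 15 tumors were then listed for each cadherin by Pearson's r among all tested genes, as a description with no test. For Cdh5 they were Pecam1, Adgrl4, Prex2, Cd93 and Plvap (r from 0.968 to 0.984), of which Pecam1 encodes the endothelial adhesion molecule CD31. Cdh13 shared Pecam1 (0.958) and Adgrl4 (0.956) with it, after Chst1 (0.962) and before Apold1 and Ldb2. For Cdh11 they were Thy1, Loxl1, Slit3, Col6a2 and Adamts12 (0.961 to 0.971), of which Thy1 is also in the fibroblast list and Col6a2 encodes a collagen chain. For Cdh1 they were Epcam (0.980), Tmc4, Lsr, Patj and Cnksr1 (down to 0.955). Epcam encodes an epithelial adhesion molecule, Lsr a protein of tricellular junctions and Patj a polarity scaffold of tight junctions. Without HET 1 and HET 5 the r of these 5 with Cdh1 was between 0.558 and 0.857.

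Cdh2 was closest to Adamtsl3, Dock4, Adgra2, Slc23a2 and Scarf2 (r from 0.900 to 0.935), and these kept r between 0.833 and 0.887 without HET 1 and HET 5. Cdh3 was closest to Gsta4 (0.882), the transcript clusters of Mir3097 and Mir205, the giant cadherin Fat1 (0.860) and the ephrin receptor Ephb3. For Cdh6 the values were lower (0.778 to 0.790, for Zdhhc6, Prm3, Irx3, Rsph3a and Dnajc28). For Cdh19 they were Pacs1, Miga2, Sars, Arhgef37 and Vipr1 (0.847 to 0.865), and with genotype means removed these fell to between 0.439 and 0.754.

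The wider set of adhesion genes gave no call between genotypes. None of 10 tested catenin and tail partner genes, 3 other type I and type II cadherins, 8 atypical cadherins, 6 desmosomal cadherins, 13 nectins and junction scaffolds, 10 repressors of Cdh1 and 9 genes of cadherin trafficking and shedding passed in any of the 3 comparisons (limma). For HET against WT the median difference was -0.20 for the catenins and tail partners, with 7 of 10 lower, 0.42 for the desmosomal cadherins, with 5 of 6 higher, and 0.39 for the repressors of Cdh1, with 8 of 10 higher, beside -0.0299 over all tested genes. For HOM against WT these medians were -0.0512, 0.45 and 0.21. The genes with the smallest p were Mmp9 (log2 difference 2.57 for HET against WT, adjusted p = 0.224), which encodes a secreted protease, and the desmosomal cadherins Dsc3 (2.74, adjusted p = 0.226) and Dsg2 (-1.17, adjusted p = 0.242). Among the repressors of Cdh1 the smallest p in HET against WT were those of Tbx2 (-0.58, adjusted p = 0.283) and Snai2 (1.53, adjusted p = 0.349). Dsc3 was 4.84 to 7.50 in HOM tumors, 4.92 to 10.30 in HET tumors and 5.02 to 5.51 in WT tumors, with HET 5 below the WT minimum. It lay above the array median on 6 arrays, none of them WT. The gene was thus tested through the genotypes in which it was high, and the size of its difference is uncertain.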

How the data were processed

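Total RNA of 15 tumors was labelled with the Affymetrix WT Terminal Labeling Kit from 100 ng each, per the labels' protocols. The deposited table holds log2 values of 41345 transcript clusters. Expression Console and Transcriptome Analysis Console, both from Affymetrix, were used per the submitters' processing notes. Neither versions nor background correction nor normalization is given in the sources used here. That the values are log2 was read from their range, 1.06 to 13.9.

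Clusters with exactly 1 gene symbol (23521) were named through the platform annotation, and gene order came from a RefSeq table of GRCm38.p6. The brightest cluster stood for a gene (22180 genes), and 14243 above the array median on at least 5 arrays were tested. One limma model (version 3.58.1, R 4.3.3) held all 3 genotypes and left 12 residual degrees of freedom. Its two-sided p-values were adjusted by Benjamini and Hochberg's method, and 0.05 was the threshold. On simulated data for HET against WT with 200 of 14243 genes changed, 62 of 100 genes moved by 1 log2 unit were recovered. Of 100 genes moved by 2, 89 were recovered, and 11 of the 162 calls were false. The simulated noise was independent between genes and had the same spread in each genotype. The real tumors shared shifts of cell types, and the SD of Cdh1 was 1.53 in HET against 0.14 in WT tumors. These rates may therefore not hold for the cadherin genes. Correlations used 100000 permutations and were adjusted over 132 relations, of which the 28 pairs of cadherins were added to the 104 planned. The members, gene lists, tests and alternatives were chosen with earlier results of these data known. Named genes were the 8 members, 4 catenins, the 5 genes most similar to each member any called gene, and up to 2 genes per adhesion list with the smallest p in a comparison. Keratin 8, Epcam as a marker, further repressors of Cdh1 and single Schwann markers were picked after their values were seen. Means of markers were taken over tested genes. The number of arrays limits the precision.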

Additional observations from a re-analysis of the deposited data

Results flagged for a closer look

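A tumor was singled out where its gap to the nearest tumor of its genotype exceeded Dixon's critical share of the range (0.71 for 5 tumors). The 8 cadherin genes, 4 catenin genes and 9 marker means gave 63 groups, of which 6 held such a tumor. Chance gives about 1 in 20. Among the cadherin genes this was Cdh1 in HET 1, at 8.38 against 11.41 to 12.16 in the other HET tumors. Jup in the tumor labelled HOM 5 was 11.17 against 12.79 to 12.98 in the other HOM tumors, and luminal epithelial markers in the same tumor were 9.76 against 10.36 to 10.53. Fibroblast markers in WT 1 were 7.03 against 9.02 to 9.35 in the other WT tumors, where Cdh11 was also lowest at 7.41. Skeletal muscle markers in HET 3 were 11.77 against 6.03 to 7.14 in the other HET tumors, and Cdh2 was 5.59 there, below its median of 7.08 over all tumors. Adipocyte markers in WT 2 were 6.58 against 6.33 to 6.37 in the other WT tumors.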

How the results depend on the processing

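No paired analysis was run, since the labels give no pairing of tumors. No difference of a cadherin gene other than Cdh19 passed under any alternative. Cdh13 against WT, in HOM and in HET, and Cdh6 in HOM against HET kept their sign throughout, and the other differences of the 7 genes turned under at least 1 alternative. With luminal and fibroblast marker means as covariates the difference was -0.79 for Cdh2, 0.43 for Cdh3, -0.0514 for Cdh5 and 0.0126 for Cdh6 in HET against WT, -0.18 for Cdh11 in HOM against WT, and -0.21 for Cdh1, 0.74 for Cdh2 and 0.0623 for Cdh5 in HOM against HET. With endothelial and leukocyte means it was 0.0552 for Cdh1, -0.00899 for Cdh5 and -0.10 for Cdh11 in HOM against WT, -0.70 for Cdh2, -0.0841 for Cdh5, 0.0527 for Cdh6 and -0.33 for Cdh11 in HET against WT, and 0.25 for Cdh2, 0.0751 for Cdh5 and 0.22 for Cdh11 in HOM against HET. With array weights it was -0.30 for Cdh2 and 0.31 for Cdh3 in HET against WT and 0.0651 for Cdh2 in HOM against HET. Renewed quantile normalization gave 0.00249 for Cdh3 in HET against WT and -0.0353 for Cdh6 in HOM against WT, and median centring gave -0.0272 for Cdh6 in HOM against WT. Without HET 1 and HET 3 it was 0.00996 for Cdh1, -0.32 for Cdh2 and 0.89 for Cdh3 in HET against WT, and -0.0842 for Cdh1 and 0.28 for Cdh2 in HOM against HET. Without WT 5 and HOM 5 it was 0.0592 for Cdh1 and -0.16 for Cdh5 in HOM against WT. In that setting HOM against WT kept its sign at -0.31 for Cdh2, -0.38 for Cdh3, 0.0253 for Cdh6, 0.13 for Cdh11 and 0.0558 for Cdh13. Jup, added after seeing the data, turned to 0.18 in HET against WT without WT 5 and HOM 5. The cause of these turns was not tested.

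With 1 tumor left out, HET against WT ranged from -0.94 to 0.0019 for Cdh1, -0.61 to 0.75 for Cdh2, -0.53 to 0.71 for Cdh3, -0.0482 to 0.73 for Cdh5, -0.23 to 0.0099 for Cdh6 and -0.25 to 0.93 for Cdh11. HOM against WT ranged from -0.14 to 0.0347 for Cdh1, -0.43 to 0.32 for Cdh2, -0.79 to 0.0903 for Cdh3, -0.13 to 0.40 for Cdh5, -0.0910 to 0.11 for Cdh6 and -0.14 to 0.51 for Cdh11. HOM against HET ranged from -0.0761 to 0.87 for Cdh1, -0.79 to 0.57 for Cdh2, -1.12 to 0.12 for Cdh3, -0.54 to 0.24 for Cdh5, -0.72 to 0.45 for Cdh11 and -0.58 to 0.0570 for Cdh13. Cdh19 kept its sign in all comparisons and alternatives that tested it, and the 75th percentile filter left it out. Its HET against WT difference lay between -3.75 and -3.34. Cdh19 was no longer called there with array weights or with endothelial and leukocyte covariates. Because the gene was listed for that difference, its kept sign there follows from the selection and is no support for it.

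The number of genes called for HET against WT was 2, and 0 with the 75th percentile filter, array weights or endothelial and leukocyte covariates, 1 with renewed quantile normalization or only the 2 genotypes compared, 10 without HET 1 and HET 3, and 1 to 48 with 1 tumor left out, the highest without HET 3. For HOM against WT it was 0, and 4 without WT 5 and HOM 5. For HOM against HET it was 0, 6 without WT 5 and HOM 5, 1 without HET 1 and HET 3, and 0 to 3 with 1 tumor left out. No cadherin gene other than Cdh19 was among the calls under any alternative. Of the 21 correlations past the threshold, 18 stayed past it under each alternative with a test. The exceptions were Cdh1 with Jup, Cdh1 with Cdh2 (without HET 1) and Cdh2 with fibroblast markers (r = 0.664, and 0.602 with all clusters of each gene averaged, adjusted permutation p = 0.100).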
